A study of Homo sapiens with 12 samples.

Results

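The genes of HLA class I presentation were followed in SU-DHL-4, a diffuse large B cell lymphoma line of germinal centre B cell type that the labels trace to a peritoneal effusion. The 9 genes were taken by symbol from the 46863 rows of the deposited count table. They were the heavy chains HLA-B, HLA-C, HLA-E and HLA-F, the light chain B2M, the peptide transporter genes TAP1 and TAP2, the loading chaperone TAPBP and the transactivator NLRC5. Of these, 8 were among the 16835 genes that passed the filter on low counts, and HLA-F was not. Polyadenylated RNA was sequenced after 72 h with solvent only (DMSO), with 1 µM of the SYK inhibitor entospletinib (Ento), with 0.01 µM of the bivalent BET inhibitor AZD5153 (AZD), or with both at these doses (Ento+AZD). Each of the 4 groups held 3 libraries numbered 1 to 3, all of the same line with wild type genotype, so the values describe a single cell line.

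HLA class I molecules display peptides from inside the cell to CD8+ T cells. Peptides cut by the proteasome enter the endoplasmic reticulum through the TAP1/TAP2 transporter and are loaded, with the help of tapasin (TAPBP), onto a heavy chain paired with beta-2-microglobulin. NLRC5 is recruited to a shared set of promoter elements of these genes, and loss of class I presentation is a known feature of many B cell lymphomas.

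Total counts lay between 18121993 and 24675830 per library, so that 1 count equalled 0.0393 to 0.0564 CPM (counts scaled to the effective library size). The 9 genes took 0.148 ± 0.0268% of all counts with DMSO (SD, n = 3), 0.153 ± 0.0247% with Ento (SD, n = 3), 0.133 ± 0.0169% with AZD (SD, n = 3) and 0.153 ± 0.0218% with Ento+AZD (SD, n = 3). Libraries with the same number resembled each other across treatments, and replicate 3 held the lowest mean CPM of 8 of the 8 tested members. The replicate number was a term of the fit, in place of the batch term that the study's methods name. When the fit had no term for the replicate number, no member was called in any comparison, which applies to each call of a member given here. The B cell markers MS4A1, CD79A, CD79B, PAX5 and BLK were all expressed, with a summed level of 3074 to 6210.1 CPM. The summed markers of T and NK cells stayed between 1.65 and 4.29 CPM, with 2 of 4 genes at 0 in every library, and those of monocytes and epithelium stayed at or below 0.481 CPM and 0.334 CPM. In the list for stroma and endothelium, 2 of 4 genes were at 0 in every library, and the sum of 11.5 to 87.4 CPM came nearly all from PECAM1.

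Upstream sequences are shown for the members whose changes are set against each other in the results, HLA-B with HLA-C and TAP1 with TAP2, and for B2M. Each is the 250 bases before the RefSeq start of the gene in GRCh38.p14, written 5′ to 3′ on the strand of the gene. Capitals mark matches, on either strand, to CCAAT, to TGACG and to the core of the interferon-stimulated response element (ISRE, a pair of GAAA blocks with 2 bases between them), whose matches overlap each other in some windows.
HLA-B, chr6:31357180-31357429, minus strand: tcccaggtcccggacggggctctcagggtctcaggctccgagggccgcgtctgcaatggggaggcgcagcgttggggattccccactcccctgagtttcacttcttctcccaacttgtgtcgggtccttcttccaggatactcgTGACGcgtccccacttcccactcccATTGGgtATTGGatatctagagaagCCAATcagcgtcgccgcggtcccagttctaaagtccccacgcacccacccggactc
HLA-C, chr6:31272093-31272342, minus strand: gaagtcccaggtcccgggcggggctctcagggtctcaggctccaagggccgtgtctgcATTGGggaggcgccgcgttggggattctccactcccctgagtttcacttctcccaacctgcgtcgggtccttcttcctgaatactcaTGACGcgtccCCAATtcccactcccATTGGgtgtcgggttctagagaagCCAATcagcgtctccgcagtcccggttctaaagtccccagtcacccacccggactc
B2M, chr15:44711267-44711516, plus strand: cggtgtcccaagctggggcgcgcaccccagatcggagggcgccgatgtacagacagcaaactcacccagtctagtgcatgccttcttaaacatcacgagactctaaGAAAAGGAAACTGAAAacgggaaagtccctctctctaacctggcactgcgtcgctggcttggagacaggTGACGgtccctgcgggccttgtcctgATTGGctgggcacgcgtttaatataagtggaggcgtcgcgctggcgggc
TAP1, chr6:32853705-32853954, minus strand: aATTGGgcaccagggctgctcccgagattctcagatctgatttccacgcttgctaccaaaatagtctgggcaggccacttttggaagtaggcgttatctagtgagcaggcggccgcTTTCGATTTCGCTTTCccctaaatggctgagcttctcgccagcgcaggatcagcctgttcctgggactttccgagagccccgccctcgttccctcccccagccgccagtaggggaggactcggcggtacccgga
TAP2, chr6:32838740-32838989, minus strand: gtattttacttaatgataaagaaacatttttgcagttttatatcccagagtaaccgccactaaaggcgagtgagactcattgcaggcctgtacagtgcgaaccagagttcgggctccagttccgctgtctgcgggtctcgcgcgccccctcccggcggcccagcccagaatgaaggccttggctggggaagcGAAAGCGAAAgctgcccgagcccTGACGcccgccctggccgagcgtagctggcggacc

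The HLA-B and HLA-C windows were identical in 226 of 254 aligned columns (89%), against 144 of 283 (50.9%) for HLA-B and B2M and 151 of 284 (53.2%) for TAP1 and TAP2. Both HLA-B and HLA-C held TGACG followed by CCAAT matches closer to the start, and neither held an exact match to the ISRE core. Near matches were not searched for, so this does not show that HLA-B and HLA-C lack an ISRE. B2M, TAP1 and TAP2 each held an exact match to the ISRE core, the pattern read by interferon regulatory factors. Windows were found for 7 of the 9 members, those of HLA-E and NLRC5 not being in the table used. TAP1 has a pair of windows there, of which the one farther upstream is shown, and the counts of members take both. CCAAT was present in 5 of these 7 and in 32% of all 35116 windows, TGACG in 4 of 7 and in 21.2%, and the ISRE core in 5 of 7 and in 3.02%. These are letter matches, and binding was not measured. TTCNNNGAA was present in 1 of 7, in the TAP1 window not shown, and in 6.57% of all windows, the kappa B pattern (GGG and CC with 5 bases between them) in 6 of 7 and in 54.4%, and GGGCGG in 4 of 7 and in 42.6%.

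In the GENCODE annotation of GRCh38 the 3 heavy chain genes HLA-B (chr6:31353872-31367067), HLA-C (chr6:31268749-31272130) and HLA-E (chr6:30489509-30494194) and the transporter genes TAP1 (chr6:32845209-32853816) and TAP2 (chr6:32821833-32838739) all lie in the major histocompatibility complex of chromosome 6. TAPBP (chr6:33299694-33314284) and HLA-F (chr6:29722775-29738528) lie in the same region, B2M on chromosome 15 (chr15:44711358-44718851) and NLRC5 on chromosome 16 (chr16:56989485-57083531). Some exons are shared with other annotated genes. TAP2 shared 2023 exon bases with a read-through gene on the same strand, TAPBP 1397 with a non-coding RNA on the opposite strand, and HLA-B 1421 with the pseudogene DHFRP2, a row of 0 to 4 counts per library.

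Levels between genes were compared per length, as RPKM, the CPM divided by the kilobases of the longest annotated transcript. With DMSO, B2M led at 293.6 ± 70.9 RPKM (SD, n = 3), followed by HLA-E at 75.3 ± 16.5 RPKM (SD, n = 3). TAP2 at 40.3 ± 9.47, TAPBP at 36.3 ± 3.57 and HLA-C at 33.1 ± 8.19 RPKM (SD, n = 3 each) followed, and the ranges of neighbours in this order overlapped. HLA-B reached 19.4 ± 8.14 RPKM (SD, n = 3), a range that overlapped with HLA-C above it and with TAP1 below it. In mean CPM with DMSO, HLA-B (68.7) stood above HLA-C (62.2). The lengths used were 3547 bases for HLA-B and 1880 bases for HLA-C, so the order of this pair rests on the annotated lengths. Which transcripts the line expresses was not tested. TAP1 (9.42 ± 2.11 RPKM), NLRC5 (1.84 ± 0.824 RPKM) and HLA-F (0.0824 ± 0.0499 RPKM, SD, n = 3 each) closed the order with ranges that did not overlap. The 2 subunits of the transporter thus stood far apart in counted RNA per length, at 40.3 RPKM for TAP2 and 9.42 RPKM for TAP1. TAP2 shares 2023 exon bases with the read-through gene, and TAP1 shares 672 with PSMB8-AS1 on the opposite strand. How reads in shared exons were counted is not given in the sources used here, and their part in this gap was not tested. The order was the same with AZD and with Ento+AZD. With Ento, HLA-B (39.9 ± 24.6 RPKM) stood beside HLA-C (39.8 ± 13.9 RPKM, SD, n = 3 each). Dividing by the union of all exons instead kept 6 of 9 positions with DMSO, 5 with Ento and 7 with Ento+AZD, all shifts being among TAP2, TAPBP, HLA-C and HLA-B.

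Exposure to Ento addressed what blocking SYK, a kinase that relays B cell receptor signals, does to these transcripts. Of the 8 tested members, 2 were higher with Ento than with DMSO, HLA-B and NLRC5, and none was lower, against 8.32% of all genes called at an adjusted p under 0.05 (4.66% higher and 3.66% lower). With DESeq2 or with scaling to total counts the members called were 1 higher, HLA-B, and 1 lower, HLA-E (adjusted p = 0.0428 and 0.0463). In the main fit the median log2 fold change of the 8 tested members was 0.198, against 0.00945 over all genes. Neither HLA-B nor NLRC5 passed the additional cut for a DEG of an absolute log2 fold change over 1, which 1.63% of genes did.

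HLA-B, a classical heavy chain, was counted at 76.3, 93.1 and 36.9 CPM with DMSO and at 114.8, 239.0 and 70.8 CPM with Ento in replicates 1, 2 and 3. Each Ento library stood above its same-numbered DMSO library, while the groups as wholes overlapped, as they did for all 8 members (15.1% of all genes did not overlap). The fitted change was 1.95-fold (log2 fold change 0.96, SE 0.12, adjusted p = 2.72e-04, edgeR quasi-likelihood test), and a fit by treatment alone gave an adjusted p of 0.480. Leaving out any one library gave log2 fold changes of 0.81 to 1.12, all called.

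NLRC5, the transactivator of class I genes, stood at 13.9, 17.4 and 6.37 CPM with DMSO and at 15.7, 25.3 and 8.89 CPM with Ento. It was higher in 3 of 3 same-numbered pairs with overlapping groups, by a log2 fold change of 0.40 (SE 0.11, adjusted p = 0.0421, edgeR). This call was close to the threshold. It was lost without Ento replicate 1 (adjusted p = 0.0960), Ento replicate 2 (0.203), Ento replicate 3 (0.113), DMSO replicate 2 (0.144), DMSO replicate 3 (0.100), Ento+AZD replicate 1 (0.0636), AZD replicate 3 (0.0563) or Ento+AZD replicate 3 (0.0543). It was also lost with DESeq2 (0.0580), with scaling to total counts (0.0539) and without all libraries of replicate 1 (0.0895), 2 (0.266) or 3 (0.180), in all in 14 of 21 alternatives.

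The other members did not pass the test with Ento. HLA-C, the second classical heavy chain, had a log2 fold change of 0.24 (95% interval 0.07 to 0.42, adjusted p = 0.0838, edgeR) and was higher in 3 of 3 pairs. TAP2 had 0.29 (adjusted p = 0.0733) and TAPBP 0.16 (adjusted p = 0.266). HLA-E, a heavy chain that displays leader peptides to NK cell receptors, had -0.29 (adjusted p = 0.0677) and TAP1 -0.30 (adjusted p = 0.132). In bulk RNA, a change in the share of cells that express a gene and a change in the RNA per cell cannot be told apart. Beside these values, 3 of 5 B cell markers were also higher with Ento, and PECAM1 was higher by a log2 fold change of 0.84, and the part of either in these results was not tested.

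**Figure D1:**
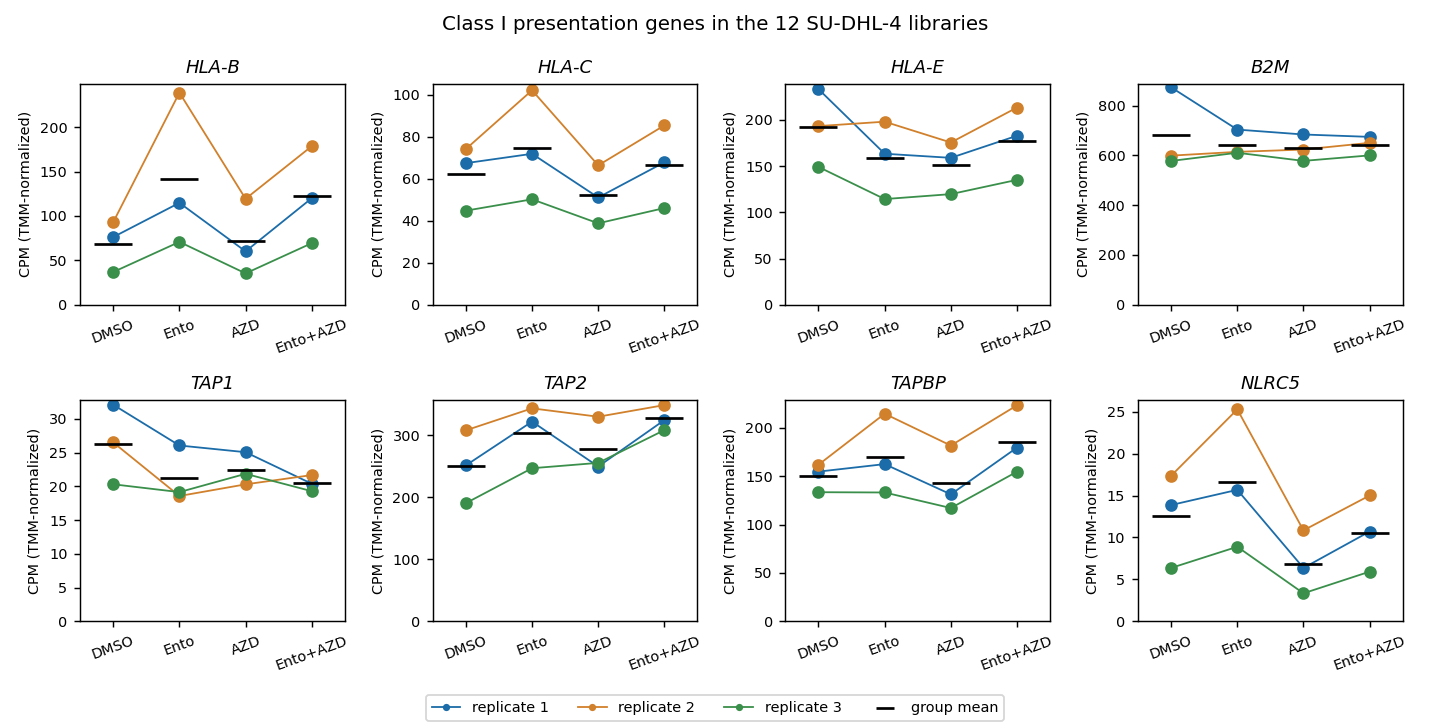
CPM (y axis, from 0) of the 8 tested genes in the 12 libraries by treatment group (x axis). Coloured points joined by lines are libraries with the same replicate number and black bars are group means. HLA-B was higher in each Ento library than in its same-numbered DMSO library, and NLRC5 was lowest with AZD in all 3 replicate numbers.

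Exposure to AZD addressed the effect of displacing BET proteins, which read acetylated histones, from chromatin. Of the 8 tested members, 3 were lower with AZD than with DMSO, NLRC5, HLA-E and HLA-C, and none was higher. Over all genes 22.2% were called, 9.57% higher and 12.7% lower. The members' median log2 fold change was -0.161, against 0.00546 over all genes, and none was a DEG (3.19% of all genes).

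NLRC5 fell from 13.9, 17.4 and 6.37 CPM with DMSO to 6.36, 10.8 and 3.34 CPM with AZD. The 3 AZD libraries each lay below the DMSO library of the same number, and AZD replicate 2 lay above DMSO replicate 3. The groups of all 8 members overlapped in this comparison (24.4% of all genes did not). The level with AZD was 0.535 times that with DMSO (log2 fold change -0.90, SE 0.12, adjusted p = 4.30e-04, edgeR). A fit by treatment alone gave an adjusted p of 0.349, and leaving out any one library gave log2 fold changes of -1.01 to -0.80, all called.

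HLA-E was counted at 233.2, 193.3 and 149.1 CPM with DMSO and at 158.9, 175.5 and 119.7 CPM with AZD, lower in 3 of 3 pairs with overlapping groups. Its log2 fold change was -0.34 (SE 0.09, adjusted p = 0.0180, edgeR), and the largest drop was in replicate 1. The call was lost without DMSO replicate 1 (adjusted p = 0.0801), AZD replicate 1 (0.0631), AZD replicate 2 (0.0679), DMSO replicate 3 (0.0561) or AZD replicate 3 (0.0607). It was also lost without all libraries of replicate 1 (0.167) or 3 (0.112). HLA-C was counted at 67.5, 74.2 and 44.8 CPM with DMSO and at 51.1, 66.4 and 38.8 CPM with AZD, also lower in 3 of 3 pairs. Its log2 fold change was -0.26 (SE 0.08, adjusted p = 0.0365, edgeR). This call was lost without any one of 8 libraries, which were DMSO replicates 1 and 3, AZD replicates 1, 2 and 3, Ento replicate 1 and Ento+AZD replicates 1 and 3, at adjusted p between 0.0520 and 0.134. It was also lost without all libraries of replicate 1 (0.268) or 3 (0.140).

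HLA-B did not pass the test with AZD. It was counted at 60.1, 119.4 and 35.3 CPM with AZD, higher than with DMSO in 1 of 3 pairs. The log2 fold change was -0.02 (95% interval -0.27 to 0.24, adjusted p = 0.931, edgeR). The remaining members also did not pass, with log2 fold changes of -0.10 for B2M, -0.22 for TAP1, 0.17 for TAP2 and -0.09 for TAPBP. Beside these values, none of 5 B cell markers was called with AZD and, of 2 tested T and NK cell markers, 1 was lower, and the part of the latter in these results was not tested.

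With Ento+AZD, the combination of main interest in the study, 3 of 8 tested members were higher than with DMSO (HLA-B, TAP2 and TAPBP) and 1 was lower (TAP1). Over all genes 40% were called, 19.2% higher and 20.8% lower, so that a count of 4 of 8 was close to the share among all genes. The members' median log2 fold change was 0.00549, against 0.0102 over all genes, and none was a DEG (8.32% of all genes).

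HLA-B was counted at 120.1, 178.7 and 69.4 CPM with Ento+AZD, above the DMSO library of the same number in 3 of 3 pairs with overlapping groups. The fitted change was 1.77-fold (log2 fold change 0.83, SE 0.12, adjusted p = 1.17e-04, edgeR), and a fit by treatment alone gave an adjusted p of 0.280. Beside the values with Ento+AZD, 3 of 5 B cell markers were higher, and PECAM1 was higher by a log2 fold change of 0.81, and the part of either was not tested.

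The peptide transporter genes were called in opposite directions. TAP2 was counted at 251.1, 307.5 and 190.3 CPM with DMSO and at 324.1, 348.2 and 307.9 CPM with Ento+AZD, the only member in any comparison whose groups did not overlap (1 of 8, against 39.2% of all genes). Its log2 fold change was 0.41 (SE 0.10, adjusted p = 0.00369, edgeR), with an adjusted p of 0.141 in a fit by treatment alone and of 0.0577 without all libraries of replicate 3. TAP1 was counted at 32.1, 26.5 and 20.3 CPM with DMSO and at 20.4, 21.7 and 19.3 CPM with Ento+AZD, lower in 3 of 3 pairs with overlapping groups. Its log2 fold change was -0.34 (SE 0.12, adjusted p = 0.0328, edgeR). The TAP1 call was lost without Ento+AZD replicate 1 (adjusted p = 0.237), DMSO replicate 1 (0.131), DMSO replicate 2 (0.111) or Ento+AZD replicate 3 (0.0544), and the fall was largest in replicate 1. It was also lost without all libraries of replicate 1 (0.347) or 2 (0.0534). TAP1 shares 672 exon bases with PSMB8-AS1 on the opposite strand, a row of 77 to 167 counts per library, and whether counting used strand is not given in the sources used here.

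TAPBP, the tapasin gene, was counted at 154.7, 161.8 and 133.4 CPM with DMSO and at 179.5, 223.2 and 154.6 CPM with Ento+AZD. It was higher in 3 of 3 pairs with overlapping groups, by a log2 fold change of 0.29 (SE 0.08, adjusted p = 0.0118, edgeR). The TAPBP call was lost without DMSO replicate 2 (adjusted p = 0.0744) or without all libraries of replicate 2 (0.0847). NLRC5 was counted at 10.7, 15.01 and 5.92 CPM, between its levels with AZD and with DMSO in each replicate number. Its log2 fold change against DMSO was -0.24 (95% interval -0.49 to 0.01, adjusted p = 0.111, edgeR).

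B2M, the light chain shared by all class I molecules, passed the test in no comparison. It was counted at 874.1, 599.5 and 578.1 CPM with DMSO, 704.2, 614.7 and 611.0 CPM with Ento, 684.5, 623.9 and 578.3 CPM with AZD, and 674.9, 650.9 and 600.4 CPM with Ento+AZD. DMSO replicate 1 stood above the other 11 libraries, which lay between 578.1 and 704.2 CPM. The log2 fold change against DMSO was -0.07 with Ento (95% interval -0.26 to 0.12), -0.10 with AZD (-0.30 to 0.09) and -0.07 with Ento+AZD (-0.26 to 0.12). HLA-F, a non-classical heavy chain, had 0 to 6 counts in every library and was not tested. Its counts were 4, 4 and 1 with DMSO and 2, 6 and 1 with Ento. With AZD they were 2, 2 and 5, and with Ento+AZD 2, 3 and 0. Counts this low leave no difference detectable. How reads that match several HLA genes were counted is not given in the sources used here. The part of such reads in the low level of HLA-F was not tested.

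**Figure D2:**
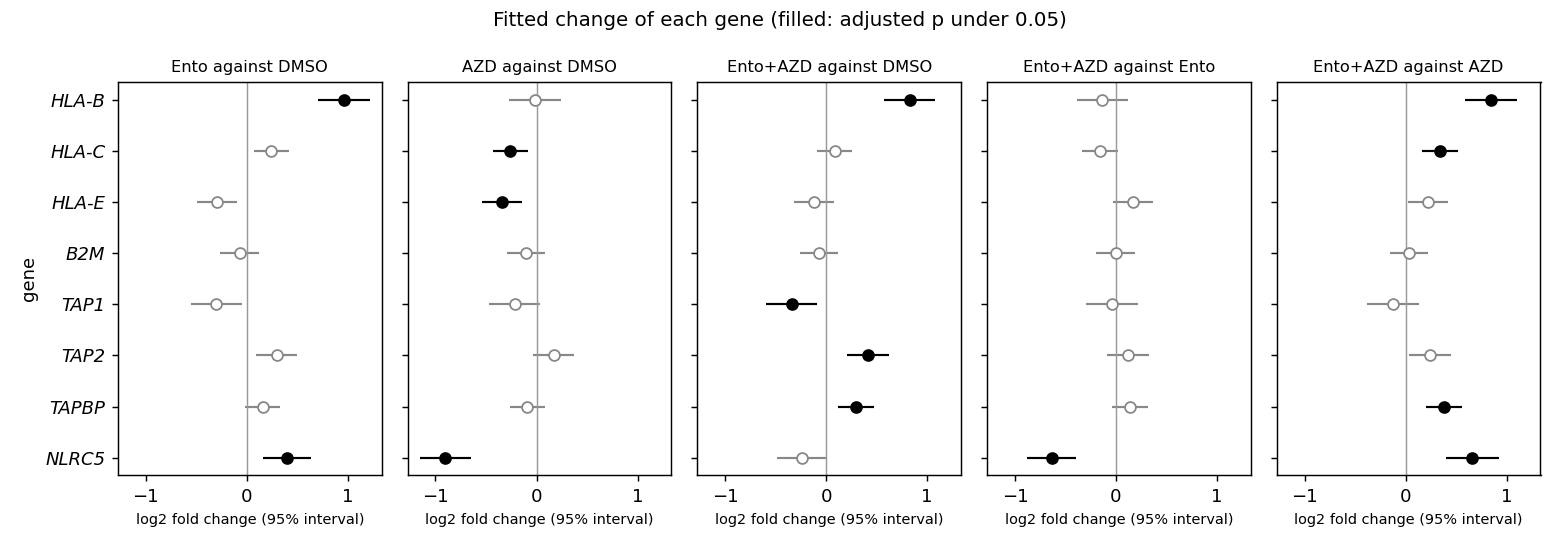
Fitted log2 fold change (x axis) with 95% interval of the 8 tested genes (y axis) in 5 comparisons. Filled points passed an adjusted p under 0.05 in edgeR with a term for replicate number. HLA-B lay at 0.83 to 0.96 in the 3 panels that compare exposure with and without Ento, and at -0.02 and -0.14 in the others.

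The combination was then compared with each single agent. Against AZD alone, 4 of 8 tested members were higher and none lower, while 11.9% of all genes were called (5.85% higher and 6.04% lower). These were HLA-B (log2 fold change 0.84, SE 0.12, adjusted p = 0.00113), NLRC5 (0.66, SE 0.12, adjusted p = 0.00538), TAPBP (0.38, SE 0.08, adjusted p = 0.0106) and HLA-C (0.34, SE 0.08, adjusted p = 0.0180), by edgeR. All 4 were higher in 3 of 3 same-numbered pairs, and in each the groups overlapped (17.1% of all genes did not). The HLA-C call was lost without AZD replicate 1 (adjusted p = 0.103), AZD replicate 2 (0.0803), Ento+AZD replicate 1 (0.0732), Ento+AZD replicate 2 (0.0541) or Ento+AZD replicate 3 (0.0502). It was also lost without all libraries of replicate 1 (0.173), 2 (0.0614) or 3 (0.0537). The TAPBP call was lost without AZD replicate 1 (0.0753) or without all libraries of replicate 1 (0.135) or 3 (0.0590), and the NLRC5 call without all libraries of replicate 1 (0.0850).

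Against Ento alone, NLRC5 was the single member called, lower with Ento+AZD by a log2 fold change of -0.64 (SE 0.11, adjusted p = 0.00198, edgeR), while 20.4% of all genes were called (8.27% higher and 12.2% lower) and 23.2% had groups that did not overlap, among them no member. HLA-B had -0.14 (95% interval -0.39 to 0.12, adjusted p = 0.446) and HLA-C -0.16 (-0.33 to 0.02, adjusted p = 0.190) in the same comparison. Ento and AZD alone were furthest apart in NLRC5, which was 2.46-fold higher with Ento (log2 fold change 1.30, SE 0.12, adjusted p = 9.32e-06, edgeR). HLA-B (0.98, SE 0.12, adjusted p = 9.13e-05) and HLA-C (0.50, SE 0.08, adjusted p = 9.68e-04) were also higher with Ento than with AZD, and 14.7% of all genes were called (8.99% higher and 5.73% lower). NLRC5 was a DEG in this comparison (3.21% of all genes), and the groups of all 8 members overlapped (21.5% of all genes did not). The doses of Ento and AZD differ, so these values describe the exposures used.

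Whether AZD changed the response to Ento was tested as an interaction. No member and no gene was called by edgeR (0%), where 1652 genes (9.81%) had an unadjusted p under 0.05, and DESeq2 called 8 genes. Among the members, HLA-E alone had an unadjusted p under 0.05 (log2 interaction 0.51, SE 0.13, adjusted p = 0.444, edgeR). HLA-E was counted at 163.4, 198.0 and 114.3 CPM with Ento and at 182.8, 213.3 and 135.1 CPM with Ento+AZD, so that in all 3 replicate numbers the combination lay above either single agent. The adjusted p for HLA-E was 0.0189 without DMSO replicate 2 and 0.00629 with no filter on low counts (edgeR). Over all genes, 213 and 278 were called in these settings. For HLA-B the log2 interaction was -0.12 (95% interval -0.48 to 0.24) and for NLRC5 0.26 (-0.09 to 0.62).

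The ratio between members within a library does not depend on library scaling. These ratios were chosen after the values were seen and are given as a description. HLA-B counts per HLA-C count were 1.13, 1.25 and 0.822 with DMSO and 1.60, 2.34 and 1.41 with Ento. With AZD they were 1.18, 1.80 and 0.910, and with Ento+AZD 1.77, 2.09 and 1.51. In 6 of 6 same-numbered pairs the ratio was higher with Ento than without, by 0.22 to 0.90 on the log2 scale (mean 0.62). HLA-B counts per B2M count were likewise higher in 6 of 6 pairs, by 0.52 to 1.32 on the log2 scale (mean 0.92). TAP1 counts per TAP2 count were higher in 1 of 6 pairs, with a mean log2 difference of -0.48. HLA-B and HLA-C are close in sequence, reads were aligned to the reference alleles, and how reads that match several HLA genes were counted is not given in the sources used here. The part of such reads in these ratios was not tested.

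**Figure D3:**
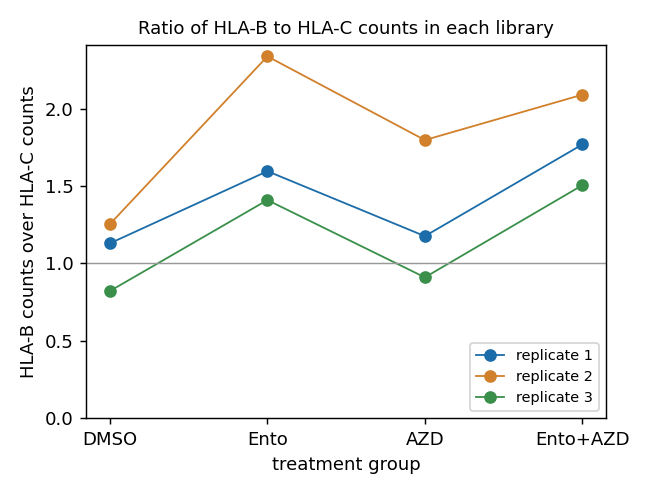
Ratio of HLA-B counts to HLA-C counts (y axis, from 0) in each of the 12 libraries by treatment group (x axis). Lines join libraries with the same replicate number, and the grey line marks equal counts. In each replicate number the ratio was higher with Ento than with DMSO and higher with Ento+AZD than with AZD.

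In most members the mean CPM ranged more widely over replicate numbers than over treatments. Mean HLA-B over the 4 treatments was 92.8 CPM in replicate 1, 157.5 CPM in replicate 2 and 53.1 CPM in replicate 3. Its treatment means lay between 68.7 CPM with DMSO and 141.5 CPM with Ento. NLRC5 stood at 11.7, 17.1 and 6.13 CPM by replicate number, and between 6.85 CPM with AZD and 16.6 CPM with Ento by treatment. HLA-C (64.6, 82.1 and 45.0 CPM), HLA-E (185, 195 and 130 CPM), TAP2 (287, 332 and 250 CPM) and TAPBP (157, 195 and 135 CPM) had the same order. So did the class II genes HLA-DRA (1230, 1457 and 829 CPM) and CIITA (189, 310 and 153 CPM), the class II transactivator. B2M (734, 622 and 592 CPM) and TAP1 (25.9, 21.8 and 20.2 CPM) did not, being highest in replicate 1.

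After removal of the replicate number, the members varied together only in part over the 12 libraries, which share treatments and controls. HLA-C was closest to NLRC5 (Pearson r = 0.90) and HLA-B to TAPBP (0.86) and HLA-C (0.83). HLA-B and NLRC5 had r = 0.63, HLA-B and TAP1 -0.63, and TAP1 and TAP2 -0.44. Among genes outside the members, the highest r was with CCNJ for HLA-B (0.99), SCIMP for NLRC5 (0.99), PBXIP1 for TAPBP (0.98), FBXL19-AS1 for TAP2 (0.97), CPEB3 for HLA-C (0.96), TRAM1 for B2M (0.94), GPATCH2 for TAP1 (0.93) and TCTN1 for HLA-E (0.92). Each member had many genes outside the members closer to it than its closest fellow member, from 80 genes for HLA-C to 2173 for TAP1. These values are descriptions with n = 12 libraries.

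Other genes of the pathway were counted by role. Of 47 calls of other named genes over all comparisons, 40 were lost in a fit by treatment alone, and 37 were lost without at least 1 library or replicate number. Against DMSO, the calls kept in a fit by treatment alone were those of PSMB8, PSME2, CALR, IRF1 and FCGRT with Ento+AZD.

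Genes that supply peptides to the transporter included the neighbours of TAP1 and TAP2 in the same region. Of 13 proteasome subunits, activators and peptidases, none was called with Ento, 2 rose and 4 fell with AZD, and 2 rose and 6 fell with Ento+AZD. Over all genes the shares were 4.66% higher and 3.66% lower with Ento, 9.57% and 12.7% with AZD, and 19.2% and 20.8% with Ento+AZD. The list's median log2 fold change was 0.05, -0.04 and -0.16. PSMB8, an immunoproteasome subunit whose gene lies between TAP2 and TAP1, fell from 45.5 ± 8.12 CPM with DMSO to 32.8 ± 3.58 CPM with AZD and 29.0 ± 5.22 CPM with Ento+AZD (SD, n = 3 each). Its log2 fold change was -0.47 with AZD (SE 0.10, adjusted p = 0.00445, edgeR) and -0.65 with Ento+AZD (SE 0.10, adjusted p = 1.51e-04). PSMB9, the immunoproteasome subunit gene beside TAP1 on the opposite strand, fell by 0.56 on the log2 scale with Ento+AZD (adjusted p = 0.00518) and PSME2, a subunit of the proteasome activator PA28, fell by 0.47 (adjusted p = 0.00386). ERAP2, a peptidase that trims peptides in the endoplasmic reticulum, fell by 0.61 with AZD (adjusted p = 0.00401), and PSME3, of the nuclear activator, rose by 0.45 (adjusted p = 0.0197).

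Chaperones of peptide loading and folding in the endoplasmic reticulum included the partners of tapasin. Of 9 genes, 3 rose and none fell with Ento, 5 rose and none fell with AZD, and 5 rose and 1 fell with Ento+AZD, with medians of 0.23, 0.27 and 0.37. The shares of all genes called higher were 4.66%, 9.57% and 19.2%. CALR, calreticulin of the loading complex, rose from 457.0 ± 86.5 CPM with DMSO to 657.5 ± 78.4 CPM with Ento, 627.3 ± 76.7 CPM with AZD and 687.2 ± 42.3 CPM with Ento+AZD (SD, n = 3 each), with log2 fold changes of 0.53 (adjusted p = 0.0137, edgeR), 0.47 (adjusted p = 0.0128) and 0.60 (adjusted p = 0.00112). UGGT1, which senses misfolded glycoproteins, rose by 0.60 with Ento (adjusted p = 0.00357) and 0.53 with Ento+AZD (adjusted p = 0.00127). HSPA5, the general chaperone BiP, rose by 0.43 with Ento (adjusted p = 0.0236), and the disulfide isomerase PDIA3 by 0.40 with AZD (adjusted p = 0.00776). SEC61A1, of the protein translocation channel, rose by 0.40 with AZD (adjusted p = 0.0110) and 0.42 with Ento+AZD (adjusted p = 0.00346). CALR, HSPA5, UGGT1 and SEC61A1 serve protein folding and translocation in general and are not particular to class I.

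Besides NLRC5, 14 factors that act on class I promoters were measured. Of these, none was called with Ento, 1 rose and 3 fell with AZD, and 2 rose and 2 fell with Ento+AZD, with medians of 0.08, -0.01 and 0.01. Over all genes 8.32%, 22.2% and 40% were called, so that 4 of 14 was near the share with AZD and below it with Ento+AZD. IRF1, an interferon regulatory factor, fell from 12.53 ± 2.16 CPM with DMSO to 9.41 ± 1.83 CPM with AZD and 7.85 ± 1.38 CPM with Ento+AZD (SD, n = 3 each), with log2 fold changes of -0.41 (adjusted p = 0.0298) and -0.67 (adjusted p = 0.00102). IRF2, of the same family, fell by 0.44 with AZD (adjusted p = 0.0405) and by 0.46 with Ento+AZD (adjusted p = 0.0213), calls near the threshold, and NFYB, a subunit of the CCAAT-binding factor, fell by 0.35 with AZD (adjusted p = 0.00920).

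Other heavy chains that pair with B2M were tested in 6 of 8 cases. None was called with Ento, while 3 fell with AZD and 2 with Ento+AZD, with medians of -0.07, -0.68 and -0.52. The shares of all genes called were 8.32%, 22.2% and 40%, so that 2 of 6 with Ento+AZD was below the share. CD1C, which presents lipids, stood at 4.11 ± 3.40 CPM with DMSO and 1.49 ± 1.14 CPM with AZD (SD, n = 3 each). On the log2 scale the change was -1.39 (SE 0.35, adjusted p = 0.0140, edgeR). CD1D, which presents lipids to NKT cells, had -0.74 with AZD (adjusted p = 0.0434). FCGRT, the neonatal Fc receptor heavy chain, had -2.22 with AZD (SE 0.55, adjusted p = 0.0119), from 10 to 21 counts with DMSO to 1 to 7 counts with AZD.

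**Figure D4:**
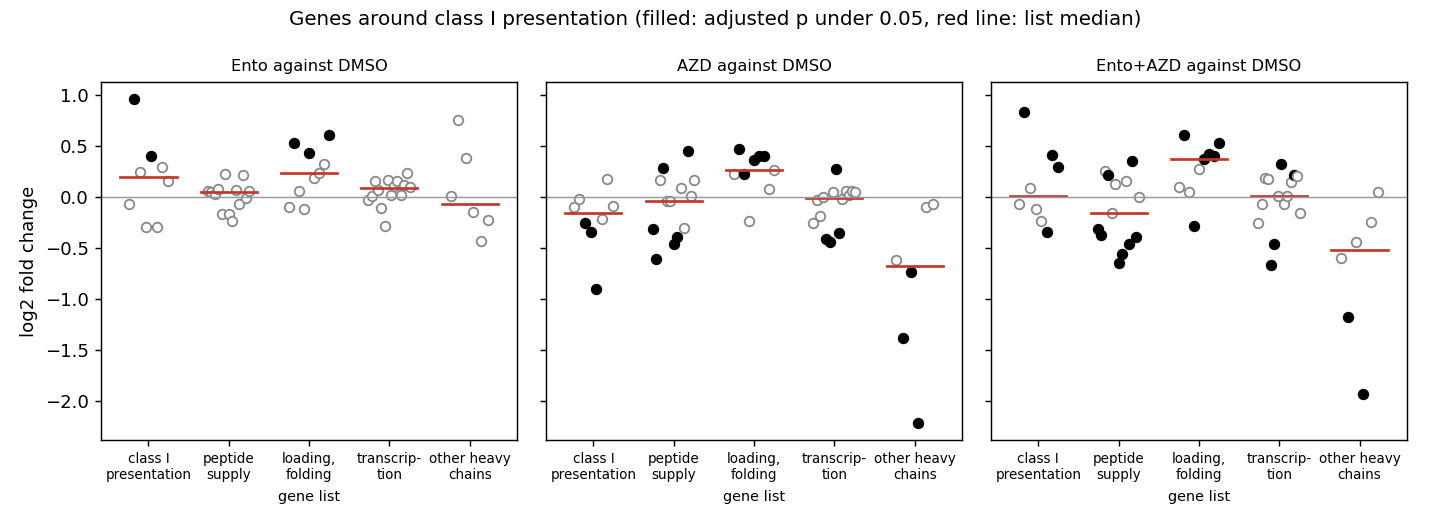
Log2 fold change against DMSO (y axis) of the 8 tested class I presentation genes and of 4 lists of genes around them (x axis), with 1 point per gene. Filled points passed an adjusted p under 0.05 and red lines are list medians. The loading and folding list had medians of 0.23 to 0.37 in the 3 panels, and the other heavy chains -0.68 with AZD.

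For comparison, of 12 genes of class II presentation, 3 rose with Ento, 1 with AZD and 7 with Ento+AZD, and none fell, with medians of 0.24, 0.09 and 0.35. Among all genes 4.66%, 9.57% and 19.2% were called higher. Of 26 interferon-stimulated genes 16 were tested. With Ento, 2 rose and none fell. With AZD, none rose and 6 fell, and with Ento+AZD 3 rose and 3 fell, with medians of 0.08, -0.25 and 0.04. Called in either direction were 8.32%, 22.2% and 40% of all genes, so that 6 of 16 with Ento+AZD was near the share. The 3 comparisons share the DMSO libraries, so their values are set side by side only. Of the class I pseudogene rows, 5 of 11 were in the table, 3 were tested and none was called.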

How the data were processed

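RNA of SU-DHL-4 cells was enriched for polyadenylated RNA and sequenced as single reads in 12 libraries. Per the labels and the methods of the study, the authors converted reads with bcl2fastq 2.19, trimmed them with CutAdapt through Trim Galore, aligned them with Rsubread to GRCh38.p13 (the labels also list hg19) and deposited raw counts per gene symbol as whole numbers. Strand, treatment of reads with several matches and annotation release are not given in the sources used here. A deposited table of log2 values by the authors (16226 genes, 8 members) differs by at most 5.00e-09 from log2 CPM computed here (edgeR, prior count 2) and was not tested.

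The counts of all 46863 symbols were filtered with filterByExpr (minimum count 10, minimum total 15), scaled by TMM and tested in edgeR 4.0.16 (R 4.3.3) with the quasi-likelihood F-test, terms for treatment and for replicate number, and Benjamini-Hochberg adjustment over 16835 genes. A gene was called at an adjusted p under 0.05, and a DEG also had an absolute log2 fold change over 1. The SE was the log2 fold change divided by the root of F. Same-numbered libraries deviated together from their group means (correlations of 0.220 to 0.716 over 18 pairs, median 0.446), so the numbers were taken as pairs. Libraries with different numbers had -0.640 to 0.336 over 36 pairs (median -0.243), a range that overlaps with the former. Deviations from a group mean cancel within the group, so these values are tied to each other. No 2 libraries of a group agreed within sampling noise (chi-square per degree of freedom 8.57 to 51.8). The series' design calls the replicates biological. The p-values measure the spread between these libraries that remained after the terms for treatment and replicate number. Counting error is the only error that depth removes. RPKM used GENCODE v44 transcript lengths. Upstream windows came from RefSeq (GRCh38.p14).

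Of the list of class I transcription factors and that of B cell markers, 1 gene each is not reported here. Members and lists were chosen with earlier results of these data known. All 9 members are named, and of each list at most the 3 called genes with the largest change in a comparison, while members' most alike genes are those with the highest Pearson r of log2 CPM (prior count 3, replicate number removed). Alternatives were no replicate number in the model, DESeq2 1.42.0, other scalings, other filters and leaving out libraries. The edgeR steps were tested on simulated data, and the DESeq2 steps were not.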

Additional observations from a re-analysis of the deposited data

How the results depend on the processing

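Without the replicate block (the pairing of libraries by number) the count of members called was 0 in all 7 comparisons, and the genes called among all tested went from 1401 to 36 for Ento against DMSO, 3745 to 326 for AZD against DMSO, 6736 to 2398 for Ento+AZD against DMSO, 3440 to 206 for Ento+AZD against Ento, 2001 to 17 for Ento+AZD against AZD and 2478 to 539 for Ento against AZD. With no filter on low counts, 4 members were called for Ento against DMSO and 1 (HLA-E) in the interaction, and genes called rose to 2294 for Ento against DMSO and to 278 in the interaction, where DESeq2 called 8. The cause was not tested. Leaving out a library or a replicate number gave 1 to 3 members called for Ento against DMSO, among 427 to 1681 genes called in all. For AZD against DMSO it gave 1 to 3 members among 987 to 4112 genes. The range was 3 to 4 members among 4549 to 6765 genes for Ento+AZD against DMSO. It was 1 to 4 among 207 to 2613 for Ento+AZD against AZD and 3 to 4 among 902 to 3028 for Ento against AZD. In the interaction 0 to 1 members and 0 to 213 genes were called. Counts of members thus moved together with large shifts in the calls over all genes. Where leaving out libraries left an arm with fewer of them, the spread was pooled over all groups. The calls of HLA-B in its 4 comparisons, and of NLRC5 for AZD against DMSO, Ento+AZD against Ento and Ento against AZD, and of HLA-C for Ento against AZD, were lost only without the block among 21 alternatives. Of 336 values of members under settings other than left-out libraries, 304 kept direction and side of the threshold, 19 lost a call, 9 gained one and 4 that were not called changed sign. Length by exon union kept 6, 5 and 7 of 9 positions of the level order with DMSO, Ento and Ento+AZD.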
